A study of Mus musculus with 16 samples.

Results

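The microRNAs miR-199 and miR-214 were followed through the small RNA of 2 mouse stromal cell lines and of the exosomes that these lines release. The members are the rows of the small RNA table named mir-199a, mir-199b or mir-214, at any locus and for both arms of the hairpin, which gave 8 of 2386 rows. All 8 passed the filter on low values that left 818 rows, a deposited value of 10 or more in at least 1 group.

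AFT024 and BFC012 are stromal lines derived from the fetal liver of C57BL/6 mice at 14.5 days post coitum. AFT024 is labelled as supportive of HSPC (hematopoietic stem and progenitor cells), BFC012 as non-supportive. The 4 small RNA groups are AFT024 cells, AFT024 exosomes, BFC012 cells and BFC012 exosomes, and polyA RNA of the same 4 kinds was sequenced as well. The labels list 2 samples in each group, but each deposited table has a single merged value for a group. Per the design text the exosome replicates are sequencing repeats of pooled and split RNA. No difference below therefore has a replicate check, no p-value was computed, and the 95% intervals cover counting error only. They are exact (Clopper-Pearson), except that those of the difference between the lines, which rest on 4 counts, are normal approximations on the log scale. As each label stands for 1 line, line and HSPC support cannot be told apart. In bulk RNA, fewer cells that hold a miRNA and less of it per cell cannot be told apart either.

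MicroRNAs are cut from a hairpin precursor, whose 5p and 3p arms can each be loaded into Argonaute and guide it to messenger RNAs through the seed, bases 2 to 8 of the mature strand. In the mouse the miR-199 family has 3 loci, each on the strand opposite to a dynamin gene, and Mir199a-2 shares the non-coding transcript Dnm3os with Mir214. Dnm3os is needed for normal skeletal growth in mice, and both miRNAs are best known from mesenchyme, fibroblasts and fibrosis, the liver included.

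The mature sequences decide which rows can be told apart. Below they are given 5′ to 3′ from RefSeq (GRCm38.p6) with the seed in capitals. RefSeq matched all 4 hairpins.
miR-199a-5p: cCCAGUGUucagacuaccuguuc
Mir199b hairpin stretch aligned to miR-199a-5p: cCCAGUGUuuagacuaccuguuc
miR-199a-3p and miR-199b-3p: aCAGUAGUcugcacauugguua
miR-214-5p: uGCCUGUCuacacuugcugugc
miR-214-3p: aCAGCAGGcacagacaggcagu

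The 3p arm is the same in Mir199a-1, Mir199a-2 and Mir199b, so its 3 rows, 1 per locus, can hold the same reads. The 5p arm is the same in Mir199a-1 and Mir199a-2, while the stretch of Mir199b differs from it by the single substitution C10U, counted from the 5′ end of miR-199a-5p, with the seed unchanged. How reads that match several loci were assigned is not given in the sources used here, so the rows of a shared arm are read side by side and not as independent values. The 4 hairpins follow, 5′ to 3′, with both arms in capitals, to show where the loci differ around the shared arms.
Mir199a-2: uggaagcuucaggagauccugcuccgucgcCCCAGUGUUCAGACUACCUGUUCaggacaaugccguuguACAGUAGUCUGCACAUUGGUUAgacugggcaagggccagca
Mir199a-1: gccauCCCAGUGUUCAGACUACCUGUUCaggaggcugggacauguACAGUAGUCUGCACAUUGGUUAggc
Mir199b: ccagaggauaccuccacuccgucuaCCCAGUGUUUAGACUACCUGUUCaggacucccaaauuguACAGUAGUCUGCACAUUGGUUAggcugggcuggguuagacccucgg
Mir214: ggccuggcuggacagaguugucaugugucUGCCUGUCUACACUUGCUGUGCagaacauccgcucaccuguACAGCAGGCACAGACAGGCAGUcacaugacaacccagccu

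In GRCm38, Mir199a-2 lies at chr1:162217814-162217923 and Mir214 at chr1:162223368-162223477, both on the plus strand and 5444 bases apart. Both overlap an exon of Dnm3os and lie opposite an intron of Dnm3. Mir199a-1, at chr9:21496495-21496564 on the minus strand, is opposite an intron of Dnm2. Mir199b, at chr2:32318460-32318569 on the plus strand, is opposite an intron of Dnm1.

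The small RNA tables held 17293776 reads for AFT024 cells and 17547485 for BFC012 cells, against 1120450 for AFT024 exosomes and 1247068 for BFC012 exosomes, so exosome values are the less precise. Levels are given as deposited, that is as reads divided by a size factor. The deepest row was miR-22-3p in the exosomes, at 19.1% of AFT024 and 10.2% of BFC012 reads, and miR-21a-5p in the cells. The row miR-199a-2-3p alone took 0.938% of the reads of AFT024 cells, 0.375% of BFC012 cells, 0.626% of AFT024 exosomes and 0.381% of BFC012 exosomes. The 8 rows are not summed, since some can hold the same reads.

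The shared miR-199 3p arm was the most abundant member in every group. The row miR-199a-2-3p had a level of 57721 in AFT024 cells, 23217 in BFC012 cells, 18774 in AFT024 exosomes and 12644 in BFC012 exosomes, from 162138, 65826, 7019 and 4755 reads. It was thus highest in AFT024 cells and lowest in BFC012 exosomes, and by the deposited scaling no interval of a step in that order spanned 1. In AFT024 cells it stood at position 20 of 2386 rows by reads, after let-7d-5p (172666 reads) and miR-148a-3p (163270 reads), and in BFC012 cells at position 45, between miR-151-3p (67144 reads) and miR-423-5p (62774 reads). In AFT024 exosomes it stood at position 35, after let-7c-2-5p (7343 reads) and miR-148a-3p (7157 reads). In BFC012 exosomes the leading member was miR-199b-3p, at position 54 with 4777 reads, after miR-183-5p (5035 reads) and let-7f-2-5p (4949 reads). The other 3p rows, miR-199a-1-3p and miR-199b-3p, followed the same order of groups, with levels of 51031 and 50924 in AFT024 cells, and 12210 and 12702 in BFC012 exosomes.

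The 5p arm of miR-199a, known from work on Hif1a and Cav1, was rarer. In the cells, the rows of the 2 miR-199a hairpins had 4.85 to 6.15 times as many 3p as 5p reads. In the exosomes they had 8.95 to 9.68 times as many. miR-199a-1-5p had a level of 9404 in AFT024 cells, 4414 in BFC012 cells, 1987 in AFT024 exosomes and 1330 in BFC012 exosomes. miR-199a-2-5p, the same mature sequence, was at 9379, 4368, 2097 and 1306 in the same groups. Both had the same order of groups as the 3p rows. miR-199b-5p, the only miR-199 arm with a sequence of its own, was at 2252, 1082, 982 and 306, from 6327, 3069, 367 and 115 reads. Its levels in BFC012 cells and AFT024 exosomes did not differ beyond counting error, with a ratio of 1.10 (0.989 to 1.23).

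The 2 arms of miR-214 had different orders. miR-214-5p was at 3991 in AFT024 cells, 1871 in BFC012 cells, 1367 in AFT024 exosomes and 1157 in BFC012 exosomes, from 11210, 5306, 511 and 435 reads. That is the order of the miR-199 rows. miR-214-3p, the arm reported to act on Ezh2, was at 3486 in AFT024 cells, 2728 in BFC012 exosomes, 2619 in AFT024 exosomes and 1483 in BFC012 cells, from 9791, 1026, 979 and 4206 reads. By the deposited scaling it was the 1 member whose lowest group was a cell group, and its exosome levels did not differ beyond counting error, with a ratio of BFC012 to AFT024 of 1.04 (0.954 to 1.14). Its seed is shared with miR-761, whose 2 rows held 1 read over all 4 groups.

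**Figure D1:**
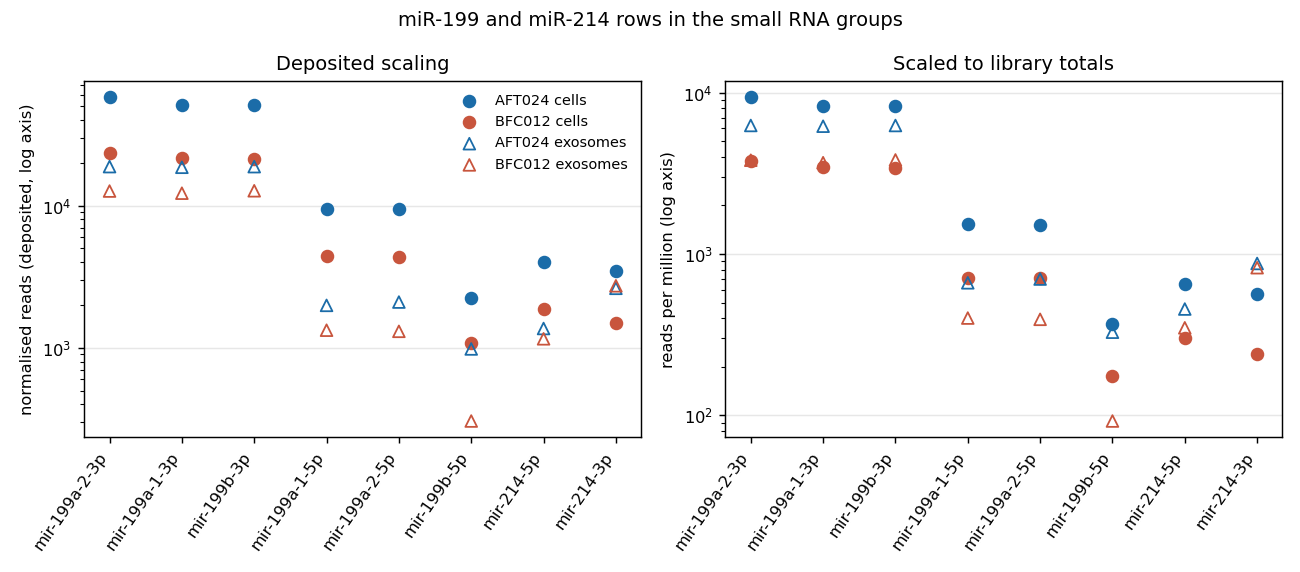
Level of each member row (x axis) in AFT024 cells (blue circles), BFC012 cells (red circles), AFT024 exosomes (blue triangles) and BFC012 exosomes (red triangles), as deposited normalised reads on the left and as reads scaled to library totals (RPM) on the right, both on log axes. AFT024 cells are the highest group for 8 of 8 rows on the left and 7 of 8 on the right, where miR-214-3p in exosomes, at 874 and 823 RPM, lies above its 566 RPM in AFT024 cells.

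In the cells, every member was higher in the supportive line. The ratio of AFT024 to BFC012 cells ran from 2.08 (1.99 to 2.17) for miR-199b-5p to 2.49 (2.46 to 2.51) for miR-199a-2-3p, with miR-214-3p at 2.35 (2.27 to 2.44) and miR-214-5p at 2.13 (2.06 to 2.20). All 8 members were thus at least 2-fold higher, where 20.2% of the 818 rows lay that far up and 18.7% that far down. The members' median log2 ratio was 1.17, against 0 over all kept rows. Scaling to library totals left all 8 past 2-fold. The 3p rows of miR-199 were a little further apart between the lines (2.38 to 2.49) than the miR-199a 5p rows (2.13 to 2.15). Among other mesenchymal miRNAs, abundant rows went both ways. Ratios were 1.21 for miR-143-3p, 1.65 for miR-21a-5p and 1.64 for miR-22-3p. They were 0.718 for miR-125b-1-5p, 0.723 for miR-125b-2-5p, 0.875 for miR-125b-1-3p and 0.395 for miR-100-5p. The rarer miR-125b-2-3p was at 2.80 and miR-22-5p at 2.25, so differences of this size were also found outside the members. In the authors' deposited table of AFT024 cells against BFC012 cells, all 8 members had a q-value under 0.05, as did 24.4% of all rows. That share is over all 2386 rows, those under the filter on low values included. It is not comparable with shares of the 818 kept rows.

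Markers of the cell type differed between the lines as well. Of 7 mesenchymal genes in polyA RNA other than Twist1 and Twist2, Col1a1 (79061 reads in AFT024 cells, 18230 in BFC012 cells), Col1a2 (1717, 12) and Pdgfrb (4650, 1990) were at least 2-fold higher in AFT024, with ratios of 4.04 (3.97 to 4.10), 133 (76.0 to 258) and 2.18 (2.06 to 2.29). Twist1 and Twist2, of the same marker list, had ratios of 1.94 and 0.804 (0.752 to 0.859), so Twist2 was lower in AFT024 cells. Vim, Prrx1 and Pdgfra had ratios of 1.68, 1.26 and 1.17, and Thy1, which had 1 read in AFT024 cells and 0 in every other group, was practically absent from both lines. Of 5 epithelial genes, Cdh1 (756 reads in BFC012 cells, 3 in AFT024 cells) and Krt19 (92, 7) had more reads in BFC012 cells beyond counting error. Krt18 (9, 5), Krt8 (21, 34) and Epcam (0, 4) did not differ beyond it. The part of these differences in the miRNA levels was not tested.

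In the exosomes the lines were closer for every member but miR-199b-5p. The 3p rows of miR-199 were 1.48 to 1.52 times as high in AFT024 as in BFC012 exosomes, the miR-199a 5p rows 1.49 and 1.61 times, and miR-214-5p 1.18 times (1.04 to 1.35). miR-214-3p had a ratio of 0.960 (0.878 to 1.05). miR-199b-5p stood apart at 3.21 (2.60 to 3.99) and was the 1 member of 8 past 2-fold, where 24.2% of the 818 rows were past it upward and 23.5% downward. Between the cells these shares of all kept rows were smaller, at 20.2% and 18.7%. The members' median log2 ratio was 0.57, against 0.01 over all kept rows. In the authors' deposited table of exosomes, 7 of 8 members had a q-value under 0.05, and miR-214-3p had a q-value of 0.827. Of all 2386 rows, those under the filter included, 13.3% had a q-value under 0.05.

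Summed miRNA markers of blood, endothelium and hepatocytes took larger shares of exosome reads than of cell reads. The 14 rows of blood cell miRNAs (miR-142a, miR-142b, miR-223, miR-451a, miR-144, miR-486a and miR-486b) took 6.95% of the reads of AFT024 exosomes and 5.15% of BFC012 exosomes, against 0.0946% and 0.453% of the cells. Most of these reads lay in the near-equal rows miR-486a-5p and miR-486b-5p, so the sum may count reads more than once. They had 31218 and 31331 of 77888 reads in AFT024 exosomes, and 37520 and 37963 of 79493 in BFC012 cells. The blood rows did not all move alike. By the deposited scaling miR-451a-5p had exosome-to-cell ratios of 3298 and 1008, but miR-486a-3p 0.107 and 0.0630 and miR-486b-3p 0.228 and 0.189. The 4 rows of endothelial miR-126 took 0.145% and 0.110% of exosome reads against 0.0203% and 0.0221% of cell reads. miR-122, a hepatocyte miRNA, had 100 and 139 exosome reads against 0 and 1 in the cells. Mesenchymal miRNAs (18 rows) took 27.5% and 16.9% of exosome reads and 41.4% and 27.6% of cell reads, and 10 epithelial rows took 0.0103% or less in every group. The mesenchymal sum also holds near-equal rows, miR-125b-1-5p and miR-125b-2-5p, with 79586 and 75236 reads in AFT024 cells. In polyA RNA the blood genes Ptprc, Hbb-bs and Hba-a1 had at most 2 reads in any group, 3 endothelial genes (Pecam1, Cdh5 and Kdr) at most 20, and of the hepatocyte genes Ttr had 0, Alb at most 6 and Afp at most 34. The part of these markers in the exosome levels of the members was not tested.

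Set against their own cells, exosomes held less of the miR-199 rows by the deposited scaling. The AFT024 ratios of exosomes to cells ran from 0.325 to 0.369 for the 3p rows, 0.211 and 0.224 for the miR-199a 5p rows, 0.436 (0.391 to 0.484) for miR-199b-5p and 0.342 (0.313 to 0.374) for miR-214-5p. miR-214-3p, at 0.751 (0.703 to 0.802), was the closest to its cell level. In all, 7 of 8 members were at least 2-fold lower, beside 35.6% of the 818 rows, with 30.7% as far higher. When reads were scaled to library totals instead, 2 of 8 remained past 2-fold, both of them miR-199a 5p rows at 0.434 and 0.459, and miR-214-3p turned to 1.54 (1.44 to 1.65).

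In BFC012 the 3p rows had ratios of 0.545 to 0.597, the miR-199a 5p rows 0.301 and 0.299, miR-199b-5p 0.283 (0.232 to 0.340) and miR-214-5p 0.618 (0.559 to 0.682). miR-214-3p alone was higher in exosomes, at 1.84 (1.72 to 1.97). The 3 miR-199 5p rows were the members at least 2-fold lower, beside 32.8% of the 818 rows, with 35.6% as far higher. Scaled to library totals, 0 of 8 were past 2-fold lower, the 3p rows turned to 1.02 to 1.11, miR-214-5p turned to 1.15 (1.04 to 1.27), and miR-214-3p was at 3.43 (3.20 to 3.68).

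The scaling itself set these levels. Going from the deposited size factors to library totals moved the median log2 ratio of all kept rows from -0.22 to 0.53 in AFT024 and from -0.04 to 0.60 in BFC012. For the members the AFT024 median moved from -1.50 to -0.46 and the BFC012 median from -0.84 to 0.06. A change of scaling multiplies all rows of a comparison by the same factor, so it cannot alter the order among the members. In that order the miR-199a 5p rows were the lowest in AFT024, miR-199b-5p was the lowest in BFC012, and miR-214-3p was the highest in both lines. By the authors' deposited tables for exosomes and cells, 8 of 8 members in AFT024 and 7 of 8 in BFC012 had a q-value under 0.05. Of all 2386 rows, those under the filter included, 26.4% and 29.4% did. The exception was miR-199a-2-3p in BFC012, with a q-value of 0.346. Its ratio was 0.545 by the deposited size factors and 1.02 (0.987 to 1.05) by library totals. For miR-199b-5p in AFT024, with a q-value of 0.0158, the ratios were 0.436 and 0.895 (0.804 to 0.995). These q-values are thus nearer to the library totals, by which some members were higher in exosomes. They do not bear on the direction of the ratios by the deposited size factors.

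**Figure D2:**
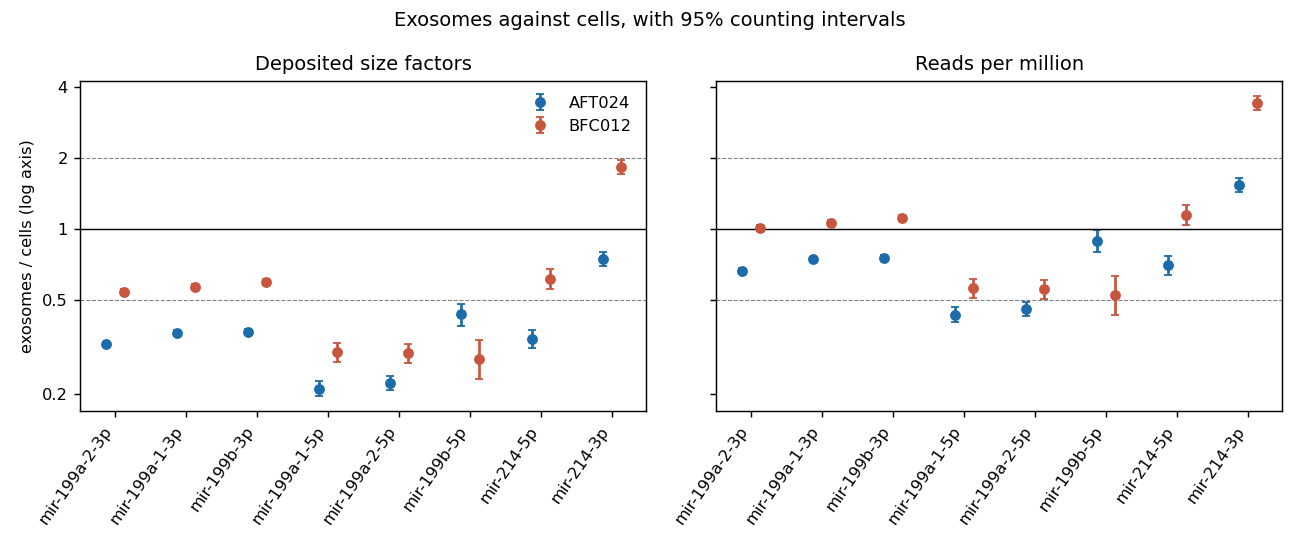
Ratio of exosomes to cells (log axis) for each member in AFT024 (blue) and BFC012 (red), by the deposited size factors on the left and by library totals on the right, with 95% counting intervals and dashed lines at 2-fold. miR-214-3p is the highest row of both lines in both panels, from 0.751 and 1.84 on the left to 1.54 and 3.43 on the right.

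The change from cells to exosomes differed between the lines for all members beyond counting error. The AFT024 ratio was 0.408 times (0.372 to 0.449) the BFC012 ratio for miR-214-3p, 0.554 times for miR-214-5p, 0.597 to 0.638 times for the miR-199 3p rows and 0.702 and 0.748 times for the miR-199a 5p rows. miR-199b-5p went the other way, at 1.54 times (1.25 to 1.91). Of these only miR-214-3p passed 2-fold, 1 of 8 members, beside 27.1% of the 818 rows, with 22.4% as far in the other direction.

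Comparisons within a library do not depend on scaling. Of the 4 hairpins, miR-214 had the widest shift between its arms. In AFT024 cells 53.4% (52.7 to 54.1) of miR-214 reads came from the 5p arm and in BFC012 cells 55.8% (54.8 to 56.8). The share was 34.3% (31.9 to 36.8) in AFT024 exosomes and 29.8% (27.4 to 32.2) in BFC012 exosomes. The 5p arm therefore led slightly in both cell groups, and the 3p arm led in both exosome groups. Exosomes minus cells gave -19.1 percentage points in AFT024 and -26.0 in BFC012. Among 163 hairpins with at least 100 reads in every group, 13.5% in AFT024, 17.2% in BFC012 and 11.7% in both lines had a 5p share lower by at least 10 points, a limit set after the values were seen, and 9.2% and 8.59% had one as much higher. miR-214 was at position 17 in AFT024 and 15 in BFC012 by this difference, lowest first, so it was among the larger shifts but not alone.

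In the miR-199 hairpins the 3p arm led everywhere. The 5p share of miR-199a-1 was 15.6% in AFT024 cells and 17.1% in BFC012 cells, against 9.67% and 9.82% in the exosomes. That of miR-199a-2 was 14.0% and 15.8%, and in the exosomes it differed by -3.93 and -6.47 points. Both hairpins had less 5p in the exosomes of both lines, by less than 10 points. The 5p share of miR-199b was 4.24% (4.13 to 4.34) in AFT024 cells, 4.84% (4.68 to 5.01) in BFC012 cells, 4.97% (4.49 to 5.49) in AFT024 exosomes and 2.35% (1.94 to 2.82) in BFC012 exosomes. It was thus lower in the exosomes of BFC012 but higher in those of AFT024. The 3p row of each miR-199 hairpin can hold reads of the other loci, while the miR-199a 5p rows can hold only those of the miR-199a loci. These shares are thus shares of rows and not of single loci. Those of miR-199b understate its 5p arm if its 3p row holds reads of miR-199a.

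**Figure D3:**
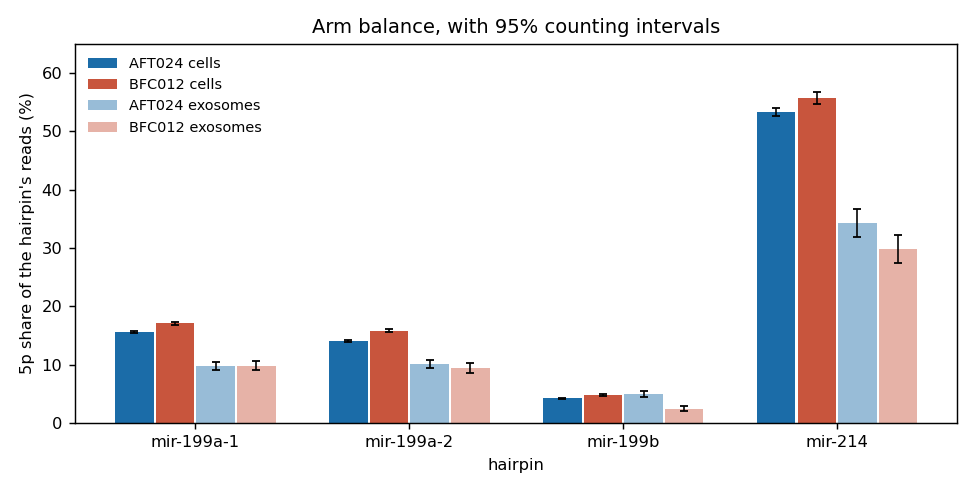
Share of each hairpin's reads that came from its 5p arm (y axis, percent) in cells (dark bars) and exosomes (light bars) of AFT024 (blue) and BFC012 (red), with 95% counting intervals. miR-214 falls from 53.4% and 55.8% in cells to 34.3% and 29.8% in exosomes, and the miR-199 hairpins stay at or below 17.1%.

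The base that marks miR-199b-5p lets the locus be read from the 5p arm. With the mean of both miR-199a 5p rows standing for miR-199a, miR-199b gave 19.3% of miR-199 5p reads in AFT024 cells, 19.8% in BFC012 cells and 18.8% in BFC012 exosomes. AFT024 exosomes stood apart at 32.5%. If the miR-199a rows hold separate reads and are summed, the shares are 10.7% in AFT024 cells and 10.4% in BFC012 exosomes against 19.4% in AFT024 exosomes. The rows are told apart by the 1 base of C10U, and the part of sequencing errors at that base was not tested.

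The 3 rows of the shared 3p arm were nearly equal, with 1 exception. In AFT024 cells miR-199a-2-3p had 1.13 times (1.12 to 1.14) the reads of miR-199a-1-3p, and in BFC012 cells 1.08 times (1.07 to 1.10). The same ratio in AFT024 exosomes was 1.01 (0.978 to 1.05) and in BFC012 exosomes 1.04 (0.994 to 1.08), within counting error of 1. The ratio of miR-199b-3p to miR-199a-1-3p was within counting error of 1 in all 4 groups. The excess of miR-199a-2-3p over the mean of the other 3p rows was 18944 reads in AFT024 cells, or 13.2%, and 5308 reads in BFC012 cells, or 8.77%. In the hairpins printed above, the base after the shared arm is g in all 3 loci, and the next is a in Mir199a-2 but g in Mir199a-1 and Mir199b, so a read that runs past the arm can fit Mir199a-2 alone. Whether such longer reads make up the excess was not tested.

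Mir199a-2 and Mir214 come from the same transcript, but their arms were far from equal in reads. In AFT024 cells miR-199a-2-3p had 16.6 times (16.2 to 16.9) the reads of miR-214-3p and in BFC012 cells 15.7 times (15.2 to 16.1). In AFT024 exosomes this ratio was 7.17 (6.70 to 7.67) and in BFC012 exosomes 4.63 (4.33 to 4.96). For the 5p arms, miR-199a-2-5p over miR-214-5p, it was 2.35 and 2.33 in the cells, and 1.53 (1.37 to 1.72) and 1.13 (0.990 to 1.29) in the exosomes. Both ratios were lower in exosomes than in cells in both lines. As reads of the shared arms can belong to any of the loci, these are ratios of rows and not of the Dnm3os locus.

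The host transcript was read in polyA RNA, which has 39385534 reads for AFT024 cells, 35874383 for BFC012 cells, 9038471 for AFT024 exosomes and 16344350 for BFC012 exosomes. Dnm3os (ENSMUSG00000078190, chr1:162217623-162225550) had 1626 reads in AFT024 cells, 620 in BFC012 cells, 4 in AFT024 exosomes and 7 in BFC012 exosomes, at 4.51, 1.86, 0.0242 and 0.0317 FPKM. The ratio between the cells was 2.44 (2.22 to 2.68) in favour of AFT024, beside 2.08 to 2.49 for the miRNA rows, and 11.1% of 13376 genes lay past 2-fold upward and 8.84% downward. In exosomes Dnm3os had few reads, and exosomes over cells gave 0.0144 (0.00391 to 0.0368) in AFT024 and 0.0351 (0.0140 to 0.0727) in BFC012. The polyA kit named in the labels does not mark strand. Reads within the span of Dnm3os can therefore not be assigned by strand to Dnm3os or to the overlapping Dnm3.

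The dynamin genes opposite the loci did not move with the miRNAs in the cells. Dnm3, a dynamin of brain and testis, had 63 reads in AFT024 cells, 49 in BFC012 cells, 2 in AFT024 exosomes and 48 in BFC012 exosomes, and a cell ratio of 1.20 (0.811 to 1.78). Dnm2, the dynamin found in most tissues, had 4265 and 4668 reads in the cells and a ratio of 0.850 (0.816 to 0.887). Dnm1, the neuronal dynamin, had 2174 and 2539 reads and a ratio of 0.797 (0.752 to 0.844). Dnm2 and Dnm1 were thus slightly lower in AFT024 cells. miR-199b-5p, which has a sequence of its own and comes from opposite Dnm1, was 2.08 times as high there. The rows of miR-199a-1, opposite Dnm2, were also at least 2-fold higher, but both arms are the same in miR-199a-2. Whether the Mir199a-1 locus itself differed between the lines can therefore not be told.

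Twist1, a transcription factor of mesenchyme reported to drive the miR-199a-2 and miR-214 locus, had 1053 reads in AFT024 cells, 504 in BFC012 cells, 66 in AFT024 exosomes and 83 in BFC012 exosomes. Its cell ratio was 1.94 (1.75 to 2.17), just under 2-fold. Its relative Twist2 had 1643 and 1902 reads in the cells and a ratio of 0.804 (0.752 to 0.859), so the pair differed in direction. Twist proteins bind E-boxes, and the Dnm3os promoter is shown for that reason. It is chr1:162217373-162217672 on the plus strand (RefSeq, GRCm38.p6), 250 bases before to 50 after the start, with the matches to CANNTG in capitals.
Dnm3os promoter: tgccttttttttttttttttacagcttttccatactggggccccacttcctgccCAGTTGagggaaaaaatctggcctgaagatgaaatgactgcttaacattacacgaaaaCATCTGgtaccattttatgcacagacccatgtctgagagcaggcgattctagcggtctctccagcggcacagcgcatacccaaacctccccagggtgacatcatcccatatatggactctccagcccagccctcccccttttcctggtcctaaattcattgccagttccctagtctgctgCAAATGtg
CANNTG reads the same on both strands. It was found 3 times here, and 72.3% of 32851 promoters of this length hold it at least once, while 17.6% of these promoters hold it 3 times or more.

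**Figure D4:**
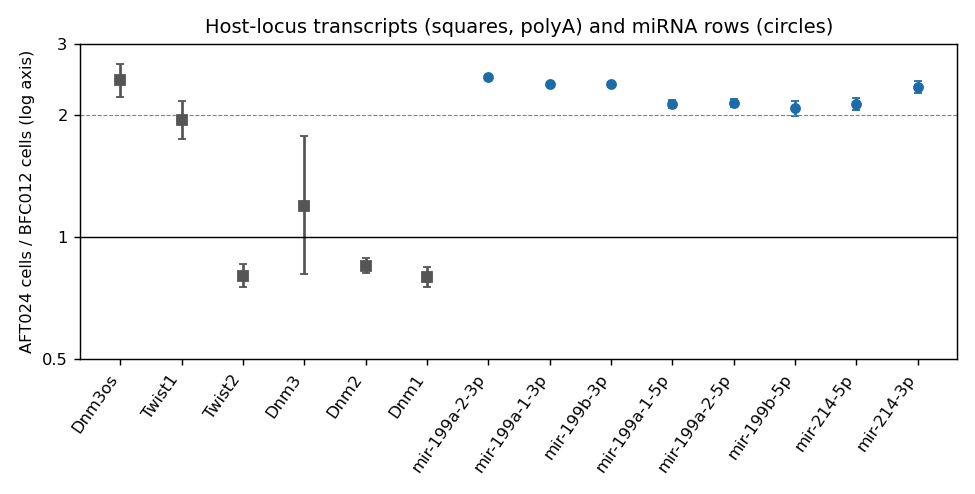
Ratio of AFT024 cells to BFC012 cells (log axis) for the genes of the host loci and the Twist factors in polyA reads (grey squares) and for the 8 member rows in small RNA (blue circles), with 95% counting intervals and a dashed line at 2-fold. Dnm3os at 2.44 and Twist1 at 1.94 lie near the miRNA rows, while Dnm2 at 0.850, Dnm1 at 0.797 and Twist2 at 0.804 lie below 1.

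Reported targets of the 3 seeds were then read in the same polyA RNA, from a list of 22 genes, 21 of which had enough reads. Between the cells 1 of them passed 2-fold in favour of AFT024 and 2 in favour of BFC012, beside the 11.1% and 8.84% of all genes. The median log2 ratio of the list was -0.12, against -0.01 over all genes. Ptgs2, the inducible cyclooxygenase and a reported miR-199a-3p target, had 3706 AFT024 and 749 BFC012 cell reads, a ratio of 4.61 (4.26 to 4.99). Met, the hepatocyte growth factor receptor and also a reported miR-199a-3p target, had 3255 and 7683 reads, a ratio of 0.394 (0.378 to 0.411). Slc8a1, a sodium-calcium exchanger reported for miR-214, had 34 and 267 reads, a ratio of 0.119 (0.0804 to 0.170). The lines thus differed in both directions among these genes.

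The other targets with enough reads differed by less than 2-fold between the cells, though several of them beyond counting error. Of the 8 reported for miR-199a-5p, 0 passed 2-fold: Hif1a, the hypoxia factor, had a ratio of 1.02 (0.980 to 1.05), and Cav1, of caveolae, one of 1.38 (1.34 to 1.42). For miR-199a-3p, Mtor had a ratio of 1.03 (0.971 to 1.09), and Cd44, a hyaluronan receptor, one of 1.72 (1.68 to 1.75). For miR-214-3p, Ezh2, of the Polycomb complex, had a ratio of 0.761 (0.732 to 0.791), and Atf4, a stress-response factor, 1.86 (1.82 to 1.91).

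Exosomes of AFT024 had 2 targets past 2-fold above the cells and 9 past 2-fold below, where 23.1% of genes were higher and 27.4% lower. In BFC012 2 were higher and 11 lower, where 24.6% and 25.5% of genes were. The 2 higher genes in both lines were the reported miR-214-3p targets Bcl2l11, a pro-apoptotic BH3 protein, with ratios of 3.55 (3.20 to 3.93) and 2.45 (2.20 to 2.72), and Ctnnb1, which encodes beta-catenin, with 3.41 (3.34 to 3.48) and 2.50 (2.46 to 2.55). Cd44 was among the lower ones in both lines, at 0.0689 (0.0614 to 0.0770) and 0.0661 (0.0588 to 0.0740). Between the exosomes 2 were higher in AFT024 (Ptgs2 and Atf4) and 3 lower (Ddr1, Ezh2 and Slc8a1), where 16.4% and 15.7% of genes were. Slc8a1 had 0 reads in AFT024 exosomes and 24 in BFC012 exosomes. In the difference between the lines 2 (Met and Xbp1) passed 2-fold upward and 2 (Ddr1 and Slc8a1) downward, beside 11.8% and 12.6% of genes.

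Matches to the seeds were looked for on the sense strand of the longest annotated 3′ untranslated region of each gene (GENCODE M21). ACACTGG, which pairs with the miR-199a-5p seed, was in 8 of 8 reported targets and in 13.4% of 21020 genes. ACTACTG, for the miR-199-3p seed, was in 2 of 6 and in 7.71% of genes, and CCTGCTG, for miR-214-3p, in 6 of 8 and in 19.3% of genes. The reported targets were partly found by such matches, so these counts are a description. Met and Slc8a1, the targets at least 2-fold lower in AFT024 cells, were the only ones with a match to pass 2-fold between the cells. The other targets with a match had cell ratios from 0.642 (Xbp1) to 1.38 (Cav1), on both sides of 1. Ptgs2 had none of ACTACTG in this window. Whether any match acts in these cells was not tested. The sites of Met and Slc8a1 are shown 5′ to 3′ on the sense strand with the match in capitals.
Met, chr6:17573134-17573154, plus strand: gaattttgtgcttACTACTGt
Slc8a1, chr17:81376848-81376868, minus strand: agcagtcctgagtCCTGCTGa
Slc8a1, chr17:81373682-81373702, minus strand: agaagaataagttCCTGCTGt
Both Slc8a1 sites lie past the end of the gene in the deposited table, and so in a longer form of the transcript than the authors' annotation lists.

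The rows most like the members over the 4 groups ranged from rare to abundant. Likeness was the largest log2 difference left in any group after centring, over 399 rows. The closest to miR-199a-2-3p was miR-449a-5p, with a largest difference of 0.28 and 432, 149, 22 and 11 reads in AFT024 cells, BFC012 cells, AFT024 exosomes and BFC012 exosomes. It was followed by miR-1843a-5p (0.32), miR-6960-5p (0.40), miR-181b-2-5p (0.43), miR-421-3p (0.44) and miR-210-3p (0.44). For miR-214-5p the closest were miR-6960-5p (0.35), miR-1843a-5p (0.37), miR-449a-5p (0.38), miR-421-3p (0.39), miR-138-1-5p (0.40) and miR-22-3p (0.40). Of these, miR-22-3p had 2817252 and 1734484 reads in AFT024 and BFC012 cells, and miR-181b-2-5p had 22077 and 5517. All of these rows share the libraries and their depth with the members, and 4 groups leave little to tell patterns apart.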

How the data were processed

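Per the labels' protocols, oligo-dT beads took polyA RNA out of Trizol-extracted RNA, and what stayed behind went into the small RNA libraries. Per the submitters' processing notes TopHat, Cufflinks and Bowtie were used with the genome build mm10 and are listed with no role. The counting tool, the annotation release and the treatment of reads that match several loci were not given in the sources used here.

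A normalised signal fills the deposited small RNA table, that is reads divided by a size factor for each group. Whole counts were recovered from it by the value of 1 read: 100% of values were whole within 0.01 reads, and they were equal in all 2386 rows to the counts in the authors' deposited pairwise tables. The deposited polyA table holds FPKM per the file headers, and the pairwise tables hold reads that the authors scaled, with their log2 ratio, p-value and q-value. These use decimal commas.

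Ratios of small RNA used the deposited size factors, and those of polyA reads median-of-ratios factors over 14905 genes. Genes with at least 20 scaled reads in 1 group were compared (13376 genes). Fold counts used log2 of the value plus 1. Intervals at 95% are Clopper-Pearson from the split of reads between groups, and for the difference between the lines a normal approximation on the log of 4 counts. Since each group has 1 merged value, nothing was tested between groups. The code for ratios and fold counts was checked on simulated counts, which says nothing of replicate error. The alternatives were library totals, library totals without the most abundant rows, recomputed size factors, other pseudocounts, filters and thresholds, 1 row per mature miRNA and, chosen after seeing the data, summed miR-199a rows. The members, gene lists and comparisons were chosen with earlier results of these data known. Named rows were all members, the host and target lists, the 6 rows most like the leading miR-199 and miR-214 rows, and the rows next above and below the leading member in each group. Python 3.11.15 with pandas 2.3.3 and SciPy 1.17.1 was used. 0 value columns were left unused. Some genes of the lists are not reported here by name.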

Additional observations from a re-analysis of the deposited data

Results flagged for a closer look

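The exosome-to-cell change of miR-214-3p differed in direction between the lines: the ratio was 0.751 in AFT024 and 1.84 in BFC012, which makes the AFT024 ratio 0.408 times the BFC012 ratio. The difference was not tested, since each group has 1 merged value. Scaled to library totals, both lines had a ratio above 1, at 1.54 and 3.43. Dnm3, in polyA reads, was also lower in exosomes than in cells of AFT024 (2 against 63 reads, ratio 0.185) and higher in those of BFC012 (48 against 49 reads, ratio 3.04), which makes the AFT024 ratio 0.0608 times the BFC012 ratio. That difference was not tested either, and it rests on 2 reads in AFT024 exosomes.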

How the results depend on the processing

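The count of members at least 2-fold lower in AFT024 exosomes than in AFT024 cells, 7 of 8, became 2 by library totals, 2 by library totals without the most abundant rows, 2 at 4-fold and 4 of 5 with 1 row per mature miRNA. In BFC012 the 3 lower members became 0 by library totals, 7 at 1.5-fold and 0 at 4-fold, and the 0 higher members became 1 by library totals with or without the most abundant rows and 1 at 1.5-fold. The 8 members higher in AFT024 than in BFC012 cells became 0 at 4-fold and 5 of 5 with 1 row per mature miRNA. For the exosomes the 1 higher member became 3 at 1.5-fold and 0 at 4-fold. For the difference between the lines, the 0 higher members became 1 at 1.5-fold, and the 1 lower member became 5 at 1.5-fold and 0 at 4-fold. Recomputed size factors equalled the deposited ones. Of 200 values of single rows under these alternatives, 57 moved beyond their counting interval, and 8 changed sign, all of them in comparisons with exosomes by library totals.

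No paired analysis was possible because each group has 1 merged value in the deposited tables, and for the same reason leaving out a replicate was not run. Depth limits the exosome values most: a floor of 3 reads is 8.02 and 7.98 normalised reads in AFT024 and BFC012 exosomes, against 1.07 and 1.06 in the cells, and miR-199b-5p in BFC012 exosomes rests on 115 reads. Exosome-against-cell levels depend on the scaling, while arm shares and ratios within a library do not.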
